A study of Rattus norvegicus with 6 samples.

Results

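Annulus and tendon identity genes are 9 genes grouped here as regulators and markers of the outer disc ring and of tendon. They were taken by name as Scx, Mkx, Tnmd, Angptl7, Aspn, Prg4, Cilp, Cilp2 and Kcnk2. Not all are particular to these tissues, since Prg4 is also a gene of joint surfaces and Cilp of cartilage. All 9 were among the 30562 genes of the count table, and all 9 passed the filter on low counts, which 15042 genes passed. The annulus fibrosus is the layered collagen ring of the intervertebral disc, and its outer part shares much of its gene expression with tendon. Scx and Mkx are transcription factors of tendon and ligament development, the other genes encode secreted, matrix or membrane proteins, and Kcnk2 encodes the potassium channel TREK-1, which responds to stretch.

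RNA was sequenced from the intervertebral disc of rats of WT genotype, with 3 libraries labelled Control and 3 labelled AF-PTK@LEV@SPP1. In the study's methods, male rats of 12 weeks had a tail disc punctured with a needle and received either PBS or AF-PTK@LEV@SPP1, a hybrid of liposome and bacterial outer membrane vesicle that bears an annulus-binding peptide on an oxidant-cleavable linker and carries siRNA against Spp1. Injections of 10 µL, with 1 mg/kg of siRNA in the treated group, began 24 h after surgery, and discs were followed for 8 weeks. The sample records differ, since they describe controls left untreated, a treatment of 14 days, and macrophages sorted by F4/80 and CD11b from discs of mice. Which description holds for these libraries was not tested beyond the markers given here.

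The Control libraries 1, 2 and 3 held 17942989, 16565291 and 17489851 counts, and those labelled AF-PTK@LEV@SPP1, called the labelled libraries below, held 17074981, 15560728 and 17855184. Control replicates 2 and 3 were nearly the same library by their counts. Over 14393 genes, their chi-square per degree of freedom was 1.33 and 0.111% of genes differed, whereas the other pairs within a group had 51.3 to 107 and 39.6% to 56.6% of genes differing. The pair therefore differed little beyond sampling noise, and its mean was counted as 1 sample, so that every mean ± SD has n = 2 for Control and n = 3 for AF-PTK@LEV@SPP1. Tests used all 6 libraries, which takes the pair as 2 samples and can understate the spread within Control, and the result of each of the 9 genes is followed by that of a fit with this pair added up into a single sample. Levels are normalized CPM, that is CPM over the tested genes after TMM scaling, and they are compared between libraries. Between genes they serve only to name the most abundant of a list, with no correction for gene length.

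As the gene that the siRNA is directed at, Spp1 was examined first and had 8123, 4411 and 4417 normalized CPM in Control replicates 1, 2 and 3, and 8054, 6903 and 8461 in the labelled libraries. The study's methods describe the siRNA as made against mouse Spp1, and its match to the rat transcript was not tested here. As a group the labelled libraries were not lower, and they overlapped Control, whose replicate 1 stood near them and whose pair stood below. Its log2 fold change was 0.47 ± 0.31 (SE), with an edgeR adjusted p of 0.317, or 0.628 with the pair summed. Spp1 therefore does not separate the labels, and all directions below compare libraries by their labels alone.

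Of the 9 genes, Angptl7, Cilp and Kcnk2 were called higher and Aspn was called lower, at an edgeR quasi-likelihood adjusted p under 0.05. Across all genes tested, 8.2% were called higher and 9.93% lower. With the Control pair summed, Angptl7 and Cilp were still called higher and Aspn lower, where 1.13% of 15537 genes were called higher and 2.57% lower. The median log2 fold change of the 9 genes was 0.86, against 0.05 over all genes tested. Over the 5 distinct samples, 5 of the 9 genes lay wholly above Control and 1 lay wholly below, while 23.7% of all genes tested lay above and 22.4% below. In bulk tissue, fewer cells of a type and less RNA per cell cannot be told apart.

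Scx encodes a basic helix-loop-helix factor that marks tendon progenitors. It had 3.85, 15.1 and 14.7 normalized CPM in Control replicates 1, 2 and 3, and 7.58, 4.10 and 9.74 in the labelled libraries. The Control pair was highest, Control replicate 1 was lowest, and the labelled libraries lay between them. Scx had a log2 fold change of -0.64 ± 0.56 (SE), with an edgeR adjusted p of 0.44, or 0.722 with the pair summed, and the group difference was smaller than the spread within Control, where the pair was 3.86 times replicate 1.

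Mkx encodes a homeobox factor needed for tendon collagen. It had 21.1, 36.6 and 36.8 normalized CPM in the Control libraries and 73.7, 45.6 and 89.0 in the labelled libraries. Every labelled library was above every Control library, and the lowest of them, replicate 2, stood closest to the Control pair. The means were 28.9 ± 11.1 (SD, n = 2) and 69.4 ± 22.0 (SD, n = 3). The log2 fold change of 1.14 ± 0.31 (SE) had an edgeR adjusted p of 0.0529, or 0.129 with the pair summed, and so missed the threshold in both fits. Mkx passed with upper quartile scaling, library size alone and DESeq2, at adjusted p-values of 0.0463, 0.0295 and 0.00575, and without AF-PTK@LEV@SPP1 replicate 2, with a log2 fold change of 1.37 and an adjusted p of 0.0397.

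Tnmd encodes tenomodulin, a membrane glycoprotein of mature tendon cells. It had 177.6, 277.0 and 283.4 normalized CPM in the Control libraries and 330.0, 219.7 and 471.6 in the labelled libraries. The groups overlapped, since labelled replicate 2 lay below the Control pair. Tnmd had a log2 fold change of 0.47 ± 0.32 (SE), with an edgeR adjusted p of 0.325, or 0.403 with the pair summed.

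Angptl7 encodes a secreted angiopoietin-like protein found in ligament, cornea and other collagenous tissue. It had 163.3, 270.5 and 275.7 normalized CPM in the Control libraries, and 1354, 1647 and 1451 in the labelled libraries. The labelled libraries were all far above Control, and they lay close to each other, the highest being 1.22 times the lowest. The mean rose from 218.2 ± 77.7 (SD, n = 2) to 1484 ± 149 (SD, n = 3), which was 6.8 times Control. The log2 fold change was 2.65 ± 0.24 (SE), with an edgeR adjusted p of 0.00303, or 0.0231 with the pair summed.

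Aspn encodes asporin, a small leucine-rich proteoglycan of collagen-rich matrix that binds TGF-beta. It had 376.3, 784.8 and 788.9 normalized CPM in the Control libraries and 120.7, 67.3 and 105.1 in the labelled libraries. Every labelled library lay below every Control library, including replicate 1, the lowest of Control. The mean fell from 581.6 ± 290.3 (SD, n = 2) to 97.7 ± 27.4 (SD, n = 3), so that Control was 5.95 times the labelled group. The log2 fold change was -2.73 ± 0.37 (SE), with an edgeR adjusted p of 0.00804, or 0.0419 with the pair summed.

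Prg4 encodes lubricin, the lubricating proteoglycan of joint and tendon surfaces. It had 420.8, 1336 and 1327 normalized CPM in the Control libraries and 524.2, 540.8 and 640.2 in the labelled libraries. The labelled libraries lay between Control replicate 1 and the Control pair, and the groups overlapped. For Prg4 the log2 fold change was -0.85 ± 0.43 (SE), with an edgeR adjusted p of 0.203, or 0.449 with the pair summed. Without Control replicate 1, which leaves the near-identical pair as the only controls, it was called lower, with a log2 fold change of -1.23 and an adjusted p of 0.00495.

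Cilp encodes cartilage intermediate layer protein, a matrix glycoprotein of cartilage, tendon and disc. It had 32.7, 37.5 and 41.3 normalized CPM in the Control libraries, and 249.0, 170.1 and 284.1 in the labelled libraries. Control replicate 1 and the pair were close for this gene, and each labelled library was several times higher than all of them. The mean rose from 36.0 ± 4.75 (SD, n = 2) to 234.4 ± 58.4 (SD, n = 3), which was 6.51 times Control. Cilp had a log2 fold change of 2.66 ± 0.22 (SE), with an edgeR adjusted p of 0.0024, or 0.0221 with the pair summed.

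Cilp2 encodes a related protein of the same family. It had 79.5, 247.0 and 246.7 normalized CPM in the Control libraries, and 543.0, 385.1 and 632.1 in the labelled libraries. The groups did not overlap, but the Control pair was 3.11 times Control replicate 1. Its log2 fold change was 1.44 ± 0.45 (SE), with an edgeR adjusted p of 0.0724, or 0.145 with the pair summed, and it missed the threshold in both fits. It passed with library size alone and DESeq2, at adjusted p-values of 0.0482 and 0.00678, and without Control replicate 1, with a log2 fold change of 1.07 and an adjusted p of 0.0278.

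Kcnk2 had 18.2, 20.2 and 19.1 normalized CPM in the Control libraries, and 47.1, 27.3 and 29.8 in the labelled libraries. The groups did not overlap, and labelled replicate 1 stood above replicates 2 and 3. The mean rose from 18.9 ± 0.98 (SD, n = 2) to 34.7 ± 10.8 (SD, n = 3), 1.83 times Control. Its log2 fold change was 0.86 ± 0.22 (SE), with an edgeR adjusted p of 0.0433, close to the threshold. The call was lost with the pair summed, at an adjusted p of 0.138, with no filter on low counts, at 0.052, with limma-voom, at 0.0544, and without Control replicate 1, 2 or 3 or AF-PTK@LEV@SPP1 replicate 3, at adjusted p-values of 0.0772, 0.131, 0.145 and 0.0799. Without AF-PTK@LEV@SPP1 replicate 1, the highest library, the log2 fold change was 0.54, at an adjusted p of 0.027.

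**Figure D1:**
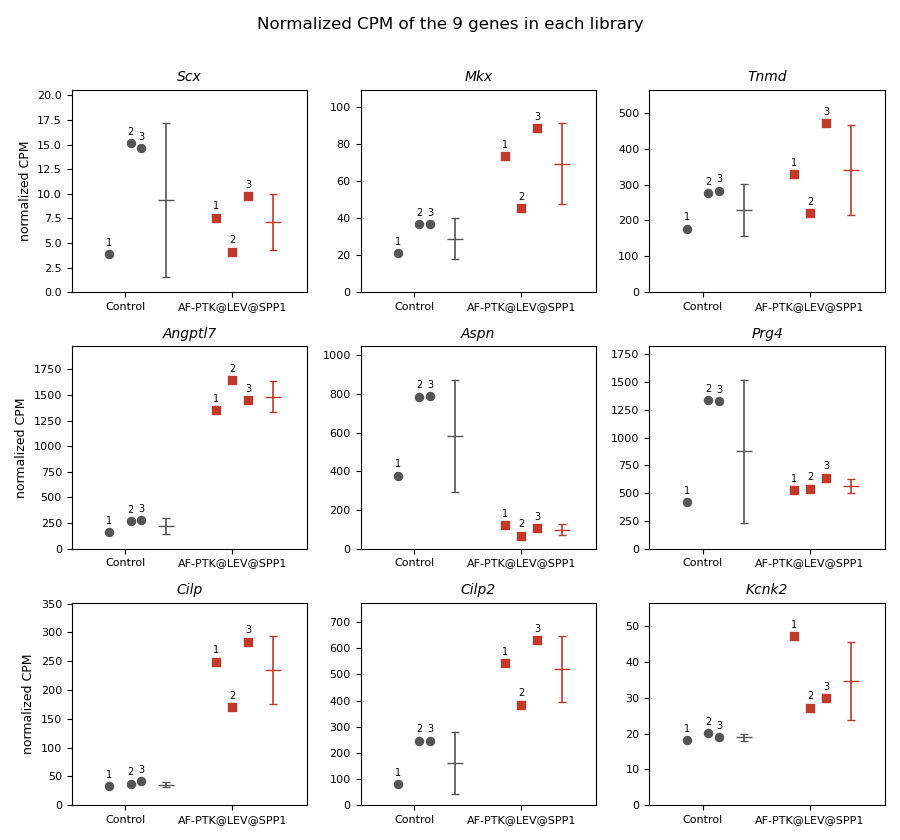
Normalized CPM (vertical axis, linear, from 0) of the 9 genes in the 3 Control libraries (grey circles) and 3 libraries labelled AF-PTK@LEV@SPP1 (red squares), numbered by replicate, with bars for the mean ± SD over 2 distinct Control samples and 3 labelled ones. Angptl7 lies at 1354 to 1647 in the labelled libraries against 163.3 to 275.7 in Control, while for Scx the labelled libraries lie between Control replicate 1 and the pair.

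**Figure D2:**
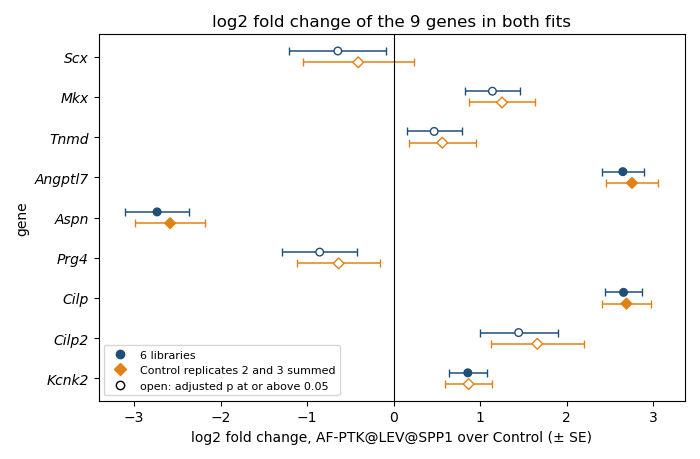
Log2 fold change of AF-PTK@LEV@SPP1 over Control (horizontal axis, ± SE) of the 9 genes, from the fit of 6 libraries (circles) and from the fit with the Control pair summed (diamonds), with filled symbols for an edgeR adjusted p under 0.05. Angptl7, Cilp and Aspn are filled in both fits, and Kcnk2 only in that of 6 libraries.

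The mean of the Control pair was above Control replicate 1 for 9 of 9 genes, by 1.58 to 3.86 times for 7 of them, while for Cilp and Kcnk2, at 1.21 and 1.08 times, replicate 1 lay close to the pair. Their summed level was 1293 normalized CPM in Control replicate 1, 3029 in the pair, and 3249, 3107 and 3712 in the labelled libraries. Among the labelled libraries, replicate 3 was highest for 6 of the 9 genes and replicate 2 lowest for 7. The spread among them ran from a coefficient of variation of 10.1% for Angptl7 to 39.8% for Scx. How often these orders of libraries occur over all genes tested was not counted, so they are not shown to be particular to the 9 genes.

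The table places the genes on chromosomes 7 (Scx), 17 (Mkx and Aspn), X (Tnmd), 5 (Angptl7), 13 (Prg4 and Kcnk2), 8 (Cilp) and 16 (Cilp2). Its build is not given with the table, and the submitters' processing notes list mm10, a mouse build, although the identifiers are those of rat genes. Of the 9 spans, 5 overlap another annotated gene. Scx, at chr7:108176608-108178626 on the plus strand, lies inside Bop1 on the minus strand, Angptl7, at chr5:158932794-158937324 on the minus strand, inside Mtor on the plus strand, and Aspn, at chr17:15080639-15104041 on the minus strand, inside Cenpp on the plus strand. Prg4 overlaps the end of Tpr on the opposite strand, and Cilp2 that of Yjefn3 on the same strand. The strand setting of the read counting is not given in the sources used here, so reads of such partners cannot be told apart with certainty.

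The genes around Angptl7 and Aspn held far fewer reads than these, which was not so for Scx. Mtor had 604 to 818 counts per library, against 3179 to 27291 for Angptl7. Cenpp had 16 to 65 counts per library, against 1116 to 12921 for Aspn. Bop1 had 186 to 336 counts and Scx 68 to 240, so their read numbers were of similar size. Overlap was taken over whole gene spans without regard to exons, and whether reads of Bop1 entered the count of Scx was not tested. None of the 5 overlapping genes was called, with edgeR adjusted p-values of 0.159 for Bop1, 0.289 for Mtor, 0.319 for Cenpp, 0.228 for Tpr and 0.075 for Yjefn3.

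The Aspn neighbourhood holds further genes of small leucine-rich proteoglycans and a related matrix protein, and of 3 such genes edgeR called 1 higher and 1 lower. The median of their log2 fold changes was 1.17. Ogn, encoding osteoglycin, had 574.1 normalized CPM in Control replicate 1, 1008 in the pair, and 361.1, 363.5 and 397.7 in the labelled libraries. It was lower in every labelled library, by a log2 fold change of -1.21 ± 0.24 (SE) at an edgeR adjusted p of 0.0219. Ecm2 went the other way, from 83.3 and 134.5 in Control to 274.5, 225.2 and 343.2, a log2 fold change of 1.26 ± 0.24 (SE) at an adjusted p of 0.0211. Omd, the third gene of the list, had 105.0 and 42.4 in Control and 135.5, 146.8 and 144.3 in the labelled libraries, all above Control. Its log2 fold change of 1.17 ± 0.37 (SE) missed the threshold by edgeR, at an adjusted p of 0.0755, or 0.206 with the pair summed, and passed by DESeq2, at 0.0121. With the Control pair summed, Ogn and Ecm2 had adjusted p-values of 0.0893 and 0.0746, so neither call held. In this list 0 were called lower without AF-PTK@LEV@SPP1 replicate 2. Leaving out AF-PTK@LEV@SPP1 replicate 3, Control replicate 2 or Control replicate 3 left 0 in either direction. Without Control replicate 1, 2 were called higher. The share of all genes tested that was called also differed between fits, and the counts of each list are to be read beside it. DESeq2 called 12.6% higher and 13.9% lower. With Control replicate 1 left out, 11.6% were called higher and 12.7% lower. With Control replicate 2 or 3 left out, these were 1.09% to 1.1% and 2.53% to 2.56%. Leaving out AF-PTK@LEV@SPP1 replicates 1, 2 and 3 in turn gave 8.12%, 4.75% and 2.89% higher and 9.26%, 5.56% and 4.12% lower.

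Other regulators of tendon formation were described from a list of 17 genes, of which 16 were tested. By edgeR 0 were called higher, where 1 had an unadjusted p under 0.05 and DESeq2 and limma-voom called 0, and 4 were called lower, calls that were all lost with the pair summed and without Control replicate 2, Control replicate 3 or AF-PTK@LEV@SPP1 replicate 3. Without AF-PTK@LEV@SPP1 replicate 2, 1 was called lower. The list's median log2 fold change was -0.40, against 0.05 over all genes tested. The called genes were Gdf5, a growth factor of joints and tendon, at a log2 fold change of -2.24 ± 0.59 (SE), Tgfb2, a TGF-beta ligand, at -1.26 ± 0.28, Pdgfra, a receptor of mesenchymal cells, at -0.90 ± 0.14, and Tgfbr2, the type II TGF-beta receptor and the most abundant of the list, at -0.55 ± 0.14. Their edgeR adjusted p-values were 0.0478, 0.0303, 0.0129 and 0.0416, and in each the labelled libraries lay wholly below Control.

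Matrix genes of tendon and outer annulus made a list of 21, all tested, of which 1 was called higher and 4 lower. Their median log2 fold change was -0.65. With the pair summed, Lum alone was called. The number called lower was 8 by DESeq2 and 10 without Control replicate 1, but 1 without AF-PTK@LEV@SPP1 replicate 2 or 3, Control replicate 2 or Control replicate 3, and 2 without AF-PTK@LEV@SPP1 replicate 1. The number called higher was 2 by DESeq2 and 0 without AF-PTK@LEV@SPP1 replicate 1 or 3 or Control replicate 2 or 3. Lum, encoding the proteoglycan lumican, had 2474 normalized CPM in Control replicate 1, 5938 in the pair, and 324.3, 444.3 and 436.5 in the labelled libraries. It fell like Aspn, with a log2 fold change of -3.57 ± 0.40 (SE) and an edgeR adjusted p of 0.00518, or 0.0303 with the pair summed. Col12a1, Tnc and Abi3bp had log2 fold changes of -2.76, -2.54 and 1.73, at adjusted p-values of 0.0179, 0.033 and 0.0336, and the remaining call was Col3a1, at -1.40 and 0.0412, named after its value was seen. Col1a1, the most abundant of the list, had a log2 fold change of 0.41 ± 0.36 (SE) and was not called.

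Paralogs of the 9 genes made a list of 13, of which 11 were tested, with a median log2 fold change of -0.75. By edgeR 4 were called lower, and Kcnk10 alone with the pair summed. The number was 2 without AF-PTK@LEV@SPP1 replicate 2 or 3 and 1 without Control replicate 2 or 3. No paralog was called higher by edgeR, where 1 had an unadjusted p under 0.05 and DESeq2 called 1 and limma-voom 0. Without AF-PTK@LEV@SPP1 replicate 1 or 2, edgeR called 1 higher. Angptl2 and Angptl4 were called lower, with log2 fold changes of -1.40 ± 0.32 and -0.84 ± 0.18 (SE) and edgeR adjusted p-values of 0.0314 and 0.0259. Angptl1, named after its value was seen, had 80.5, 71.2 and 66.1 normalized CPM in Control and 257.7, 108.1 and 132.2 in the labelled libraries. Its labelled libraries lay wholly above Control, as for Angptl7, but its log2 fold change of 1.19 ± 0.33 (SE) missed the threshold, at an edgeR adjusted p of 0.0535, or 0.17 with the pair summed. The 2 other channels of the TREK and TRAAK family were lower than Control while Kcnk2 was higher. Kcnk4 had 37, 116 and 141 counts in Control and 3, 3 and 7 in the labelled libraries, and Kcnk10 had 29, 22 and 21 against 2, 2 and 1. The labelled counts of Kcnk10 lay below 3, taken here as the smallest measurable level, and Kcnk4 stood at it in labelled replicates 1 and 2. The size of both falls is therefore uncertain. The edgeR adjusted p-values of Kcnk4 and Kcnk10 were 0.0127 and 0.0041, and with the pair summed 0.0531 and 0.0298. Dcn, the most abundant paralog, was not called by edgeR, at a log2 fold change of -1.05 ± 0.34 (SE) and an adjusted p of 0.077, but DESeq2 called it lower, at 0.00371.

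Mechanosensitive channels made a list of 9, all tested, with a median log2 fold change of -0.50. By edgeR 4 were called lower and 0 higher, with 0 higher at an unadjusted p under 0.05 and 0 by DESeq2 or limma-voom. Beside Kcnk4 and Kcnk10, the called genes were Trpv2, at a log2 fold change of -1.74 ± 0.17 (SE) and an edgeR adjusted p of 0.00366, and Piezo2, at -0.97 ± 0.17 and 0.0165. With the pair summed, Trpv2 and Kcnk10, the latter with labelled counts below 3, were still called. Without Control replicate 2 or 3, edgeR called 2 lower. Piezo1, the most abundant, had a log2 fold change of -0.50 ± 0.17 (SE), with its labelled libraries wholly below Control. It was not called by edgeR, at an adjusted p of 0.081, or by limma-voom, at 0.0861, but was called lower by DESeq2, at 0.0345.

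Libraries also differed in genes of other cell types, and the part of these differences in the values of the 9 genes was not tested. Cartilage and inner annulus genes (17 tested of 17, median log2 fold change 0.17) had 2 called higher, Chad and Sox6, at log2 fold changes of 2.78 and 1.56, and 1 lower, Matn3, at -1.21. Col2a1, their most abundant, was not called, and Chad and Sox6 held with the pair summed. The number called lower was 3 by DESeq2, 2 without AF-PTK@LEV@SPP1 replicate 1, and 0 with the pair summed, with library size alone and without AF-PTK@LEV@SPP1 replicate 2 or any 1 Control library. Their summed level was 26530 normalized CPM in Control replicate 1, 34330 in the pair, and 44280, 31870 and 47260 in the labelled libraries.

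Nucleus pulposus genes (7 tested of the 8 found by name, median log2 fold change 2.40) had Krt18 and Cd24 called higher, at log2 fold changes of 3.25 and 2.08, and neither call held with the pair summed. The number called higher was 5 by DESeq2 and without Control replicate 1, 1 without AF-PTK@LEV@SPP1 replicate 3, and 0 without Control replicate 2 or 3. Their summed level was 1688 in Control replicate 1, 533.4 in the pair, and 7154, 3976 and 3499 in the labelled libraries, with Car3 the most abundant. Genes of synovial lining and surface zone (10 of 10 tested, median -0.53), sites where Prg4 is also expressed, had Clu and Clic5 called higher and Has1, Has2 and Thy1 lower, and Clu and Clic5 held with the pair summed. The number called lower was 5 without Control replicate 1, 1 without AF-PTK@LEV@SPP1 replicate 3, and 0 without AF-PTK@LEV@SPP1 replicate 2, Control replicate 2 or Control replicate 3, and that called higher was 1 without Control replicate 2. The sums of this list were 881.3, 1284, 2345, 1613 and 2108 in the same order, Clu being the most abundant.

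Macrophage genes (12 of 12 tested, median log2 fold change -0.65) had 3 called lower, Cd68, Cd14 and Mrc1, of which Cd68 and Cd14 held with the pair summed. By edgeR 0 were called higher, where 1 had an unadjusted p under 0.05 and DESeq2 called 1 and limma-voom 0. Their summed level was 3185 in Control replicate 1, 2135 in the pair, and 724.0, 2003 and 2016 in the labelled libraries, with Lyz2 the most abundant. The same libraries, which the records describe as sorted macrophages, held matrix genes of tendon and outer annulus at sums of 99580, 163100, 172900, 124700 and 159500, with Col1a1 at 31920 to 64080 normalized CPM. Endothelial genes (8 of 8 tested, median -0.34) had 4 called lower, Pecam1, Vwf, Tie1 and Cdh5, all lost with the pair summed. The number was also 0 without Control replicate 2 or 3 or AF-PTK@LEV@SPP1 replicate 2 or 3, and with a log2 fold change above 1 in size, and 2 without AF-PTK@LEV@SPP1 replicate 1. Their sums were 587.1, 696.5, 436.5, 511.5 and 517.2, led by Pecam1.

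Markers of tissue around the disc also varied, and sums are given for Control replicate 1, the pair, and labelled replicates 1, 2 and 3. Skeletal muscle genes (10 tested of the 10 found by name, median log2 fold change 1.93) summed to 1155, 1537, 1082, 11270 and 2904, led by Acta1, and were highest in labelled replicate 2. Erythroid genes (6 of 6, median 3.14) summed to 2391, 3232, 2507, 20570 and 14100, led by Hba-a1. Neutrophil genes (8 of 8, median 2.26) summed to 1132, 185.0, 289.2, 2723 and 3752, led by S100a9, and osteoblast genes (8 of 8) summed to 4699, 1840, 2275, 3260 and 1893, led by Ibsp. In these 4 lists edgeR called 0 genes in the fit of 6 libraries. Without AF-PTK@LEV@SPP1 replicate 1 it called 6 muscle, 3 erythroid and 2 neutrophil genes higher, and without Control replicate 1, 4 neutrophil, 3 osteoblast and 3 erythroid genes. At an unadjusted p under 0.05 with 6 libraries, 5 muscle and 6 erythroid genes were higher, the numbers DESeq2 called, while limma-voom called 0, and for neutrophil and osteoblast genes all these counts were 0.

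Adipocyte genes (8 of 8 tested, median log2 fold change 2.79) had Lep and Lipe called higher by edgeR, and summed to 537.7, 107.2, 1230, 1920 and 885.2, led by Fabp4. In all 8 the labelled libraries lay wholly above Control, and 7 were called higher by DESeq2 and 4 by limma-voom. By edgeR 8 were called higher without Control replicate 1, 1 without AF-PTK@LEV@SPP1 replicate 2 or 3, and 0 without Control replicate 2 or 3. Keratinocyte genes (4 tested of the 6 found by name, median 0.45) had Perp called higher and Dsg1 lower, and summed to 19.3, 12.9, 42.0, 27.4 and 33.5, with Perp the most abundant. With the pair summed, edgeR called none of the adipocyte and keratinocyte genes. It called 0 keratinocyte genes higher without AF-PTK@LEV@SPP1 replicate 2 or 3 or Control replicate 2 or 3, and 0 lower without Control replicate 2. Across the lists described no gene found by name was at 0 in every library.

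The genes whose log2 CPM over the 5 distinct samples ran most like each of the 9 genes were sought among 12971 genes. Scx ran most like Tspan2, Dkk3 and Taf1b, Mkx like Hdac10, Thbd and Cilk1, and Tnmd like Cmc4, Ucma and Id2. Angptl7 ran most like Smarcc2, Hnrnph3 and Bms1, Aspn like Csnk1a1, Dbn1 and Mpzl1, and Prg4 like Pign, Kiaa1755 and Atxn7l3. Cilp ran most like Gstm7, Crebzf and Paip2, Cilp2 like Zcchc3, Trmu and Ltbp4, and Kcnk2 like Trim11, Clasp1 and Usp43. Pearson's r was 0.99154 to 0.99994 for these, which describes likeness over 5 samples only and was not tested. Gstm7, the closest to Cilp, had 6.88 and 7.69 normalized CPM in Control replicate 1 and the pair and 34.6, 24.1 and 39.0 in the labelled libraries.

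Promoter sequences, from 250 bases before to 50 after the gene start, were matched by symbol in a table from RefSeq with the GRCr8 build, in which 7 of the 9 genes had an entry, with 9 promoters in all, and Scx and Angptl7 had none. Scx belongs to a family of factors that bind the E-box CANNTG, and this word was searched on both strands, as were the other words named here. It stood in 5 of the 9 promoters, and in 72.1% of 33469 rat promoters of the same length. TGANTCA, GTCTAGAC and GGGNNTTCC stood in 0 of the 9 and in 7.33%, 0.197% and 5.92% of all promoters, and TATAAA in 1 of the 9 and 14.2% of all. The promoters of Cilp, which rose, its paralog Cilp2, and Aspn, which fell, are shown from 5′ to 3′ along the gene's strand, with E-box words in capitals. They lie at chr8:74672198-74672497 on the plus strand, chr16:19573857-19574156 on the plus strand and chr17:15310420-15310719 on the minus strand. A match is a description of these letters only.
Cilp: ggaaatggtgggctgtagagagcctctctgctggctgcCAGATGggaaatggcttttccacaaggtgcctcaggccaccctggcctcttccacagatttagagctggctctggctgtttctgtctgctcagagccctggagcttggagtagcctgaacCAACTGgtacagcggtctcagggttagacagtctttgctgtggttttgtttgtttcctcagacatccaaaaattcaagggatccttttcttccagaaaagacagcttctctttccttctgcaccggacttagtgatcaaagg
Cilp2: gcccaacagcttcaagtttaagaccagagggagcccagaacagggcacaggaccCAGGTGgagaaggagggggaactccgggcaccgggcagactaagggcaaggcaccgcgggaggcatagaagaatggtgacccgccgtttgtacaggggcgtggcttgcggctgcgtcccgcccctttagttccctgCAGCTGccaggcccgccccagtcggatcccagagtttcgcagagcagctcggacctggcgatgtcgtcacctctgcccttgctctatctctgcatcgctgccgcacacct
Aspn: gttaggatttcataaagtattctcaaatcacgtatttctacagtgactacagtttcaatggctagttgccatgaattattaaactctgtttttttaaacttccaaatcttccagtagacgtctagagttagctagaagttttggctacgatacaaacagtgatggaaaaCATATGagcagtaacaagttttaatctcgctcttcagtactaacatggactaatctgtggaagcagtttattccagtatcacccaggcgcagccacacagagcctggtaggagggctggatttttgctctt
The Cilp promoter holds CAGATG and CAACTG, from bases 39 and 159 of the window, the Cilp2 promoter CAGGTG and CAGCTG, from bases 55 and 191, and the Aspn promoter the single word CATATG, from base 170.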

How the data were processed

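The authors deposited raw counts, 1 whole number of reads per rat Ensembl gene and library, without normalization. The submitters' processing notes list FastQC, Trimmomatic, HISAT2, featureCounts, DESeq2 and the build mm10, without versions, and a stranded kit is named in the sample records. The use of strand and of shared reads is not given in the sources used here. Columns are named AFPTK and IVD with a number. Those named IVD were taken as Control because no other group remained, and the numbers as those of the sample titles.

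The test was run in R 4.3.3 with edgeR 4.0.16, using TMM scaling, filterByExpr at a minimum count of 10, the quasi-likelihood test and Benjamini-Hochberg adjustment over all genes tested. A call is an adjusted p under 0.05 at any fold change. The SE is the log2 fold change divided by the root of the F statistic. Values of log2 CPM had a prior count of 2, and 3 counts, 0.154 to 0.193 CPM, were taken as the smallest measurable level, which covers counting error only. The records call the libraries biological replicates, 3 per group, without naming animals, and the study's methods give 3 animals per group. The p-values measure the spread between these libraries, and those of the 6-library fit take the near-identical pair as 2 samples. Scripts were tested on simulated data.

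The 9 genes and the gene lists were chosen with earlier results of these data known. Named genes are the 9, Spp1, genes that overlap the 9, the 3 genes most like each, and of every list up to 4 called genes with the largest change and the most abundant gene. Col3a1, Angptl1, Has2 and Omd were added after their values were seen. Krt19, Myh1, Mylpf and Krt14 were not matched by name. A further list of cell markers is not reported here. Alternatives were the Control pair summed, RLE, upper quartile or no scaling factors, no filter, DESeq2 1.42.0, limma-voom (limma 3.58.1), the replicate number as a block, a threshold on fold change and each library left out.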

Additional observations from a re-analysis of the deposited data

How the results depend on the processing

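Angptl7 and Cilp were called higher under all 14 alternatives fitted, at log2 fold changes of 2.44 to 2.77 and 2.50 to 2.84, and Aspn was called lower under 13, at -3.01 to -2.52. No fold change of the 9 genes turned its direction under any of the 14. Scx and Tnmd were called under none, Mkx under 4, Cilp2 under 3, Prg4 under 1 and Kcnk2 under 6. Of the 9 genes, 5 were called higher with library size alone and 5 with DESeq2, which called 7.01% and 12.6% of all genes tested higher. Each library left out in turn gave 2 to 4 of the 9 genes called higher and 1 to 2 lower, and 169 to 1790 genes called higher and 393 to 1955 lower among all tested. For all genes tested, the highest numbers came without Control replicate 1, which leaves the near-identical pair, the lowest without Control replicate 2 or 3, which leaves 2 Control libraries that differ, and the cause of the other changes was not tested. Without AF-PTK@LEV@SPP1 replicate 3, 442 were called higher and 630 lower, and without replicate 2, 727 and 851.

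Among all genes tested, 175 were called higher and 400 lower with the Control pair summed, which has 1 sample fewer, against 1233 and 1494 in the fit of 6 libraries. DESeq2 called 1890 higher, and a log2 fold change above 1 in size left 633 higher and 695 lower. With the replicate number as a block, 307 were called higher and 434 lower, and 0 of the 9 genes lower, since Aspn had an edgeR adjusted p of 0.0575 (0.0419 at most under the other alternatives). Kcnk2 also lost its call under the block, at 0.121. The deviations of same-numbered libraries had r of -0.326, -0.282 and -0.0756. With each labelled library, both members of the Control pair gave nearly the same r, and Control replicate 1 an r of opposite sign. These r are therefore not separate measures, and they cannot decide whether the numbers pair the samples. In the other gene lists described, 255 counts of calls under alternatives belong to a count above 0 in the 6-library fit, of which 159 stayed within 1.5 times it, 82 were lower and 14 higher. Of 225 that belong to a count of 0, 212 were also 0. With 2 distinct Control samples, the spread within Control rests on the distance between replicate 1 and the pair.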
